A study of Mus musculus with 8 samples.

Results

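Crk and Crkl, the Crk adaptors, and 8 genes of their pathway, among them the small GTPase Rac1, were followed in mouse myoblasts depleted of Septin9. Septin9 is a subunit of the septin filaments of the cytoskeleton. The 10 genes (Crk, Crkl, Bcar1, Nedd9, Dock1, Dock5, Elmo1, Elmo2, Rapgef1 and Rac1) were taken by their symbols from the 42391 gene entries of the raw count matrix. They were chosen by measured values, because Crkl fell after the Septin9 siRNA in both cell types and Crk did not. Their response to the siRNA is therefore given as a description without a p-value, and nothing is read from whether a fit called them. RNA was sequenced from 8 samples in 4 groups of 2, in which wild-type cells received either a non-targeting siRNA (control) or a Septin9 siRNA (Septin9-deficient). C2C12 cells, a mouse myoblast line, received 50 nM siRNA (100 nM during the first 5 h) and were lysed 60 h after transfection, the last 12 h of it in differentiation medium. Primary myoblasts, isolated from hindlimb muscle of 5-week-old mice, were lysed while proliferating, 48 h after transfection, and their siRNA concentration was not given in the labels. The study's methods state 2 independent experiments, and the replicate number was taken as the experiment.

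Crk and Crkl are adaptor proteins without enzyme activity that bind phosphorylated tyrosines through one domain and proline-rich partners through another. Phosphorylated scaffolds of the Cas family, such as Bcar1 and Nedd9, recruit them, and they in turn bring exchange factors to the membrane: Dock proteins, which with their Elmo partners load Rac with GTP, and Rapgef1, which loads Rap. Active Rac drives branched actin assembly through the WAVE and Arp2/3 complexes, and Crk, Crkl, Dock1 and Rac1 are required for the fusion of mouse myoblasts into multinucleated fibers.

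Between 20898611 and 27223414 reads per sample were counted on genes, and the values below are CPM, counts scaled to the library size, scaled with edgeR's TMM factors. All 6 myoblast markers were expressed in both cell types, with a summed level of 944 to 1749 CPM in C2C12 cells and 3496 to 6015 CPM in primary myoblasts. The summed level of 6 fibroblast markers was 115 to 140 CPM in C2C12 cells, of which Col1a1 made up 97.6 to 127 CPM. Pdgfra was at 9.42 to 17.1 CPM there, and Dcn, Lum and Thy1 were at 0 to 2.72 CPM. In primary myoblasts the sum was 8.64 and 7.03 CPM in the control and Septin9-deficient sample of experiment 1. In those of experiment 2 the sum was 303 and 441 CPM, with Col1a1 at 249 and 378 CPM. Tcf21 was at 0 in every sample. Immune markers summed to at most 6.18 CPM in C2C12 cells and 55.6 CPM in primary myoblasts, in the control of experiment 1. Laptm5 alone gave 50.0 CPM of that sum. In the same sample Ptprc and Adgre1 were at 0, and Csf1r, Cd53 and Cd68 were at 0.602 to 2.92 CPM. Endothelial markers reached at most 4.77 CPM and neural and glial markers at most 2.53 CPM in any sample. Septin9 itself was at 39.3% of control in Septin9-deficient C2C12 cells and at 43.2% in primary myoblasts. In bulk RNA, fewer cells of a type and less RNA per cell cannot be told apart.

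Crkl, the Crk-like adaptor, lay lower in all 4 Septin9-deficient samples than in all 4 control samples. In C2C12 cells Crkl stood at 66.6 and 64.2 CPM in the control samples and at 31.1 and 41.0 CPM in the Septin9-deficient samples of experiments 1 and 2. In primary myoblasts it stood at 82.7 and 69.9 CPM in the controls and at 44.3 and 37.4 CPM after depletion. The groups did not overlap in either cell type, and the Septin9-deficient mean was 55.1% of control in C2C12 cells and 53.6% in primary myoblasts. By edgeR the fitted log2 fold change was -0.87 (standard error, SE, 0.09) in C2C12 cells and -0.90 (SE 0.11) in primary myoblasts. The C2C12 pairs gave log2 ratios of -1.10 and -0.64, and both pairs of primary myoblasts gave -0.90. The fitted changes of the cell types differed by -0.03 on the log2 scale (SE 0.15). These values rest on 667 to 1924 raw counts of Crkl per sample.

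The sequence of Crkl is shown for a short match to the siRNA that Crk does not hold. Crkl lies on chromosome 16 of GRCm38, from 17451987 to 17487434 on the plus strand. The seed of the siRNA, positions 2 to 8 of the strand taken as the guide, is complementary to the heptamer GACGTGT. Among the 10 genes, Crkl alone held this heptamer after its coding sequence, once and in 1 of 2 protein-coding transcripts, at chr16:17487150-17487156 in the 3′ untranslated region. It starts 3355 bases after the stop codon in an untranslated region of 3639 bases. The stretch chr16:17487140-17487166 is shown 5′ to 3′ on the plus strand, from the transcripts of GENCODE release 21, with the heptamer in capitals.
Crkl: aaactcttttGACGTGTataacttaaa
The base after the heptamer is an A. Crk held no copy in the 3535 bases after its coding sequence. Dock1 and Rac1 held the heptamer only within or before the coding sequence.

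Genes with and without the heptamer are described here without a test. In C2C12 cells 403 of the 12229 genes with a sequence, or 3.30%, held the heptamer after the coding sequence, and their median log2 fold change was -0.12, against -0.0002 for the genes without it. In primary myoblasts 439 of 13143 genes, or 3.34%, held it, and the medians were -0.12 and 0.0073. At an adjusted p under 0.05, 21.6% of genes with the heptamer and 4.07% without it were lower in Septin9-deficient C2C12 cells. In primary myoblasts these shares were 10.5% and 0.882%, and Crkl is counted among the genes with the heptamer. Genes with the heptamer also had more sequence after the stop codon, with a median of 2629 bases against 1134 in C2C12 cells and of 2613 against 1141 in primary myoblasts. Whether the heptamer or the length has a part in the change of Crkl was not tested.

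**Figure D1:**
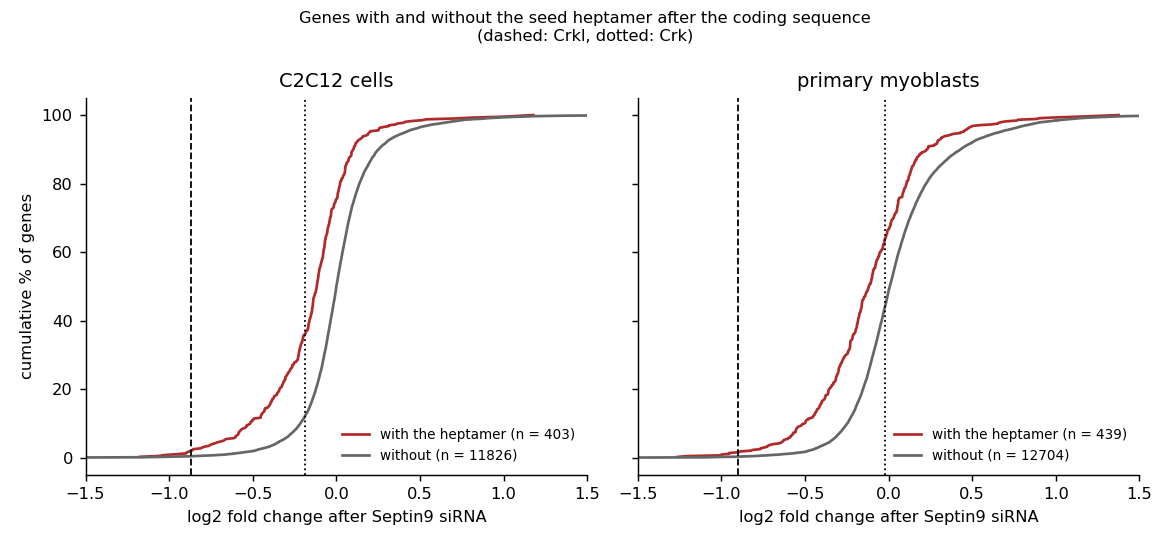
Cumulative share of tested genes (y axis, percent) by log2 fold change after Septin9 siRNA (x axis), for genes with the seed heptamer after the coding sequence (red) and without it (grey), in C2C12 cells and primary myoblasts. The red curve lies to the left of the grey curve over most of the range, and the lines mark Crkl (dashed, -0.87 and -0.90) and Crk (dotted, -0.19 and -0.02).

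Crk, the paralog of Crkl, differed less between the groups. In C2C12 cells Crk was at 235 and 247 CPM in the controls and at 207 and 218 CPM after depletion, so that both Septin9-deficient samples lay just below both controls. In primary myoblasts it was at 215 and 231 CPM in the controls and at 224 and 215 CPM after depletion, and the groups overlapped. The fitted log2 fold change was -0.19 (SE 0.07) in C2C12 cells and -0.02 (SE 0.12) in primary myoblasts. Crk and Crkl transcripts share no stretch of 50 bases with each other or with another gene, so reads of that length tell them apart. Per kilobase of exon, Crkl made up 21.0% and 19.6% of the summed Crk and Crkl level in the C2C12 controls and 12.3% and 15.0% in Septin9-deficient C2C12 cells. In primary myoblasts its share was 26.6% and 22.1% in the controls and 15.7% and 14.1% after depletion. In both cell types Crk was thus the more abundant transcript of the pair in every sample.

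**Figure D2:**
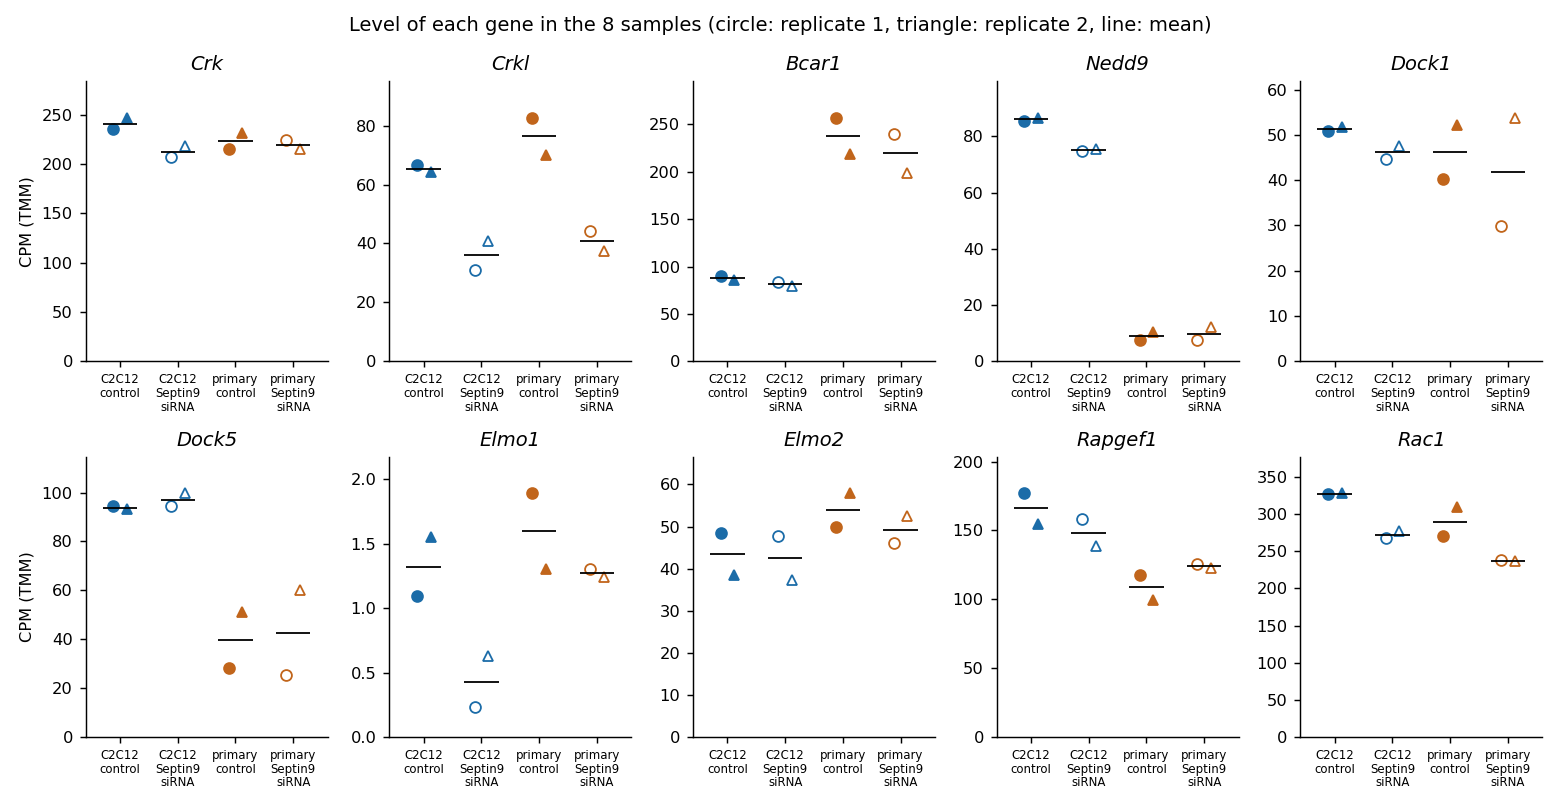
Level in CPM (y axis, from 0) of each of the 10 genes in the 4 groups, with control samples filled and Septin9-deficient samples open, C2C12 cells in blue and primary myoblasts in orange, replicate 1 as a circle, replicate 2 as a triangle and the group mean as a line. Crkl lies at 64.2 to 82.7 CPM in the control samples and at 31.1 to 44.3 CPM in the Septin9-deficient samples, whereas Crk stays between 207 and 247 CPM.

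Rac1, the GTPase at the end of the pathway, was lower in both replicate pairs of both cell types. It was at 327 and 328 CPM in the controls and at 268 and 277 CPM in Septin9-deficient C2C12 cells. In primary myoblasts it was at 270 and 310 CPM in the controls and at 238 and 237 CPM after depletion. The groups did not overlap in either cell type, and the log2 fold changes were -0.27 (SE 0.07) and -0.28 (SE 0.12). The values of Rac1 are uncertain, since 2309 bases of its exons overlap those of Daglb on the opposite strand of chromosome 5 and 55.0% of its 50-base stretches occur in Daglb, and the sources used here do not say whether counting used the strand.

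The Cas scaffolds that carry the docking sites for Crk proteins, Bcar1 and Nedd9, moved little with the siRNA. Bcar1 was at 90.0 and 85.8 CPM in the controls and at 83.5 and 79.5 CPM in Septin9-deficient C2C12 cells, which do not overlap, and its log2 fold change was -0.11 in C2C12 cells and -0.12 in primary myoblasts. Nedd9 was at 85.4 and 86.7 CPM in the controls and at 74.7 and 75.4 CPM in Septin9-deficient C2C12 cells. In primary myoblasts Nedd9 was far lower, at 7.56 and 10.4 CPM in the controls and at 7.57 and 12.2 CPM after depletion, and the groups overlapped. The log2 fold change of Nedd9 was -0.20 (SE 0.07) in C2C12 cells and 0.13 (SE 0.17) in primary myoblasts.

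Among the exchange factors, which load GTPases with GTP, none of Dock1, Dock5 and Rapgef1 passed the fold threshold used for differentially expressed genes (DEGs, with an adjusted p under 0.05 and at least 1.5-fold changed). Dock1 was at 50.9 and 51.8 CPM in the controls and at 44.7 and 47.5 CPM in Septin9-deficient C2C12 cells, without overlap. In primary myoblasts Dock1 was at 40.3 and 52.1 CPM in the controls and at 29.8 and 53.8 CPM after depletion, so the pairs went opposite ways, with log2 ratios of -0.44 and 0.05. Dock5, a close relative of Dock1, stayed at 93.1 to 99.7 CPM in the C2C12 samples and overlapped in primary myoblasts, at 28.2 and 51.1 CPM in the controls and 25.2 and 60.3 CPM after depletion. Rapgef1, the exchange factor for Rap bound by Crk proteins, was at 177 and 155 CPM in the controls and at 158 and 139 CPM in Septin9-deficient C2C12 cells. In primary myoblasts the Septin9-deficient samples, at 126 and 123 CPM, both lay above the controls, at 118 and 99.5 CPM. Rapgef1 had log2 fold changes of -0.17 (SE 0.07) in C2C12 cells and 0.20 (SE 0.11) in primary myoblasts, and 3.67% of its 50-base stretches are shared, most with the pseudogene Gm9823.

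Elmo proteins hold Dock proteins in their active state. In CPM, Elmo2 was the most abundant of Elmo1, Elmo2 and Elmo3 in every sample. Elmo2 was at 48.4 and 38.4 CPM in the controls and at 47.8 and 37.3 CPM in Septin9-deficient C2C12 cells. Its log2 fold change was -0.04 in C2C12 cells and -0.12 in primary myoblasts. Elmo3, from the wider pathway lists, was at 1.82 to 2.10 CPM in C2C12 samples and at 3.27 to 9.05 CPM in primary myoblasts. Elmo1 was counted in few reads, 24 and 42 in the C2C12 controls and 5 and 15 after depletion. In primary myoblasts Elmo1 had 44 and 35 reads in the controls and 29 and 26 after depletion. Its log2 fold change of -1.61 (SE 0.41) in C2C12 cells and of -0.31 (SE 0.34) in primary myoblasts rests on those counts. Per kilobase Elmo1 made up at most 2.08% of the summed Elmo1 and Elmo2 level in any sample. An antisense gene, Gm32036, overlaps 403 bases of Elmo1 exons.

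Across the 10 genes, all of which were tested in both cell types, 3 were called lower in Septin9-deficient C2C12 cells (Crkl, Elmo1 and Rac1), where 4.12% of all genes tested were called lower. Crkl and Elmo1 were DEGs, as were 0.740% of all genes tested in that direction. In primary myoblasts only Crkl was called lower and was a DEG, where 1.04% of all genes were called lower and 0.298% were DEGs in that direction. Both Septin9-deficient samples lay below both controls for 7 of the 10 genes in C2C12 cells, against 12.1% of all genes, and for 3 in primary myoblasts, against 15.3%, where 1 (Rapgef1) lay above, against 12.5%. In both replicate pairs 9 genes were lower in C2C12 cells, against 30.4% of all genes, and 5 in primary myoblasts, against 29.4%. The log2 fold changes of the 10 genes had a median of -0.18 (C2C12 cells) and -0.12 (primary myoblasts), beside medians of -0.0008 and 0.0100 over all genes tested. As the choice of the genes used these contrasts, the counts describe the members and nothing is read from them. Without the replicate block none of the 10 genes was called, as edgeR then called no gene in either cell type. In those fits 372 of 15814 and 378 of 17117 genes had an unadjusted p under 0.05. In C2C12 cells none was called without replicate 1 either, where Crkl was at -0.64. DESeq2 on the deposited batch-corrected counts called Crk, Crkl and Rac1 lower in C2C12 cells and not Elmo1. Muscle differentiation genes moved with the siRNA as well: the summed level of 12 such genes went from 42.7 to 82.7 and from 176 to 249 CPM in the C2C12 pairs and from 16925 to 22778 and from 4724 to 11340 CPM in the pairs of primary myoblasts, whereas the summed level of 10 proliferation genes was lower after depletion in each pair, at 2013 and 1690, 980 and 847, 1154 and 927, and 1393 and 1131 CPM. Not every gene went with its sum. In the C2C12 pairs Mcm6 (178 to 192 and 89.1 to 107 CPM) and Pcna (184 to 189 and 91.7 to 94.7 CPM) rose, as did Mcm2 in pair 2 (35.8 to 39.7 CPM). Acta1, a differentiation gene, fell in the C2C12 pairs (7.28 to 4.90 and 17.7 to 14.5 CPM). In primary myoblasts Acta1 went from 3347 to 2535 and from 893 to 1075 CPM. The part of the differentiation and proliferation genes in the changes described here was not tested.

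**Figure D3:**
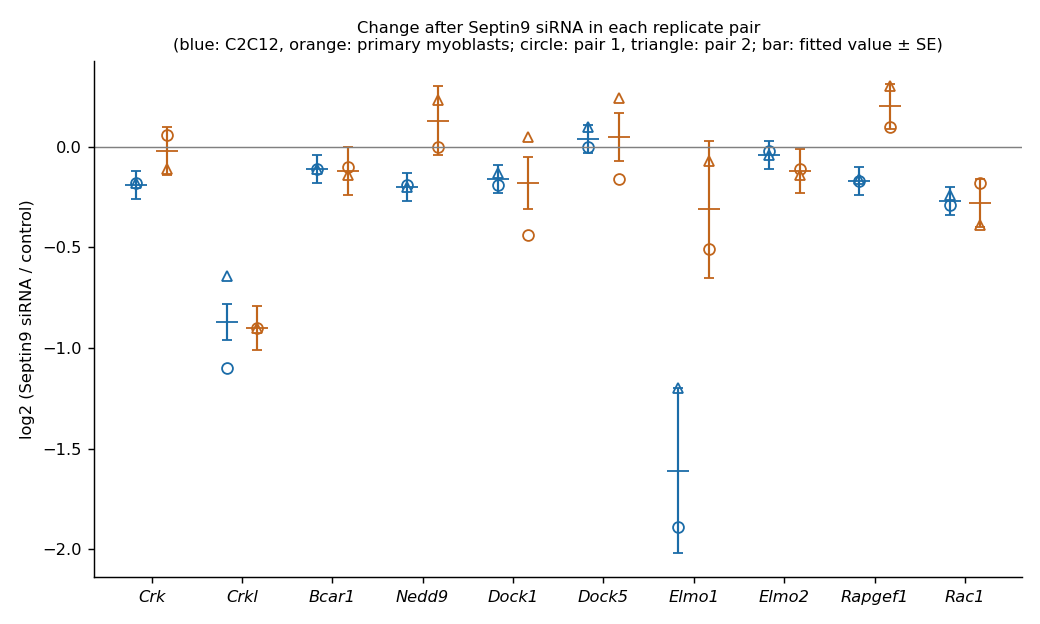
Log2 ratio of the Septin9-deficient to the control sample (y axis) for each of the 10 genes in C2C12 cells (blue) and primary myoblasts (orange), with pair 1 as a circle, pair 2 as a triangle and the fitted log2 fold change with its SE as a bar. Crkl lies between -1.10 and -0.64 in the 4 pairs, Elmo1 is spread from -1.89 to -0.07, and the other 8 genes lie between -0.44 and 0.30.

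The control samples show how the pathway is composed before depletion. The choice of the genes did not use the comparison between the control cell types. It did use the same control samples, in the siRNA contrasts, and was made with earlier results of these data known. In control C2C12 cells the order per kilobase of exon was Rac1 (72.8 CPM per kb), Crk (51.0), Rapgef1 (22.5), Bcar1 (19.3), Nedd9 (13.5), Crkl (13.0), Dock5 (7.71), Elmo2 (6.52), Dock1 (5.51) and Elmo1 (0.105), and no pair of neighbours overlapped between the 2 samples. In control primary myoblasts it was Rac1 (64.4 CPM per kb), Bcar1 (52.3), Crk (47.1), Crkl (15.1), Rapgef1 (14.7), Elmo2 (8.10), Dock1 (4.95), Dock5 (3.26), Nedd9 (1.41) and Elmo1 (0.127). There Bcar1 overlapped with Crk, and Crkl overlapped with Rapgef1. The lengths came from GENCODE release 21, which is not the release the study's methods name. With the length of the longest coding transcript, a setting added after the data were examined, Bcar1 (28.0 CPM per kb) stood above Rapgef1 (26.0) in C2C12 cells, and in primary myoblasts Bcar1 (75.7) stood above Rac1 (69.7) and Rapgef1 above Crkl.

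**Figure D4:**
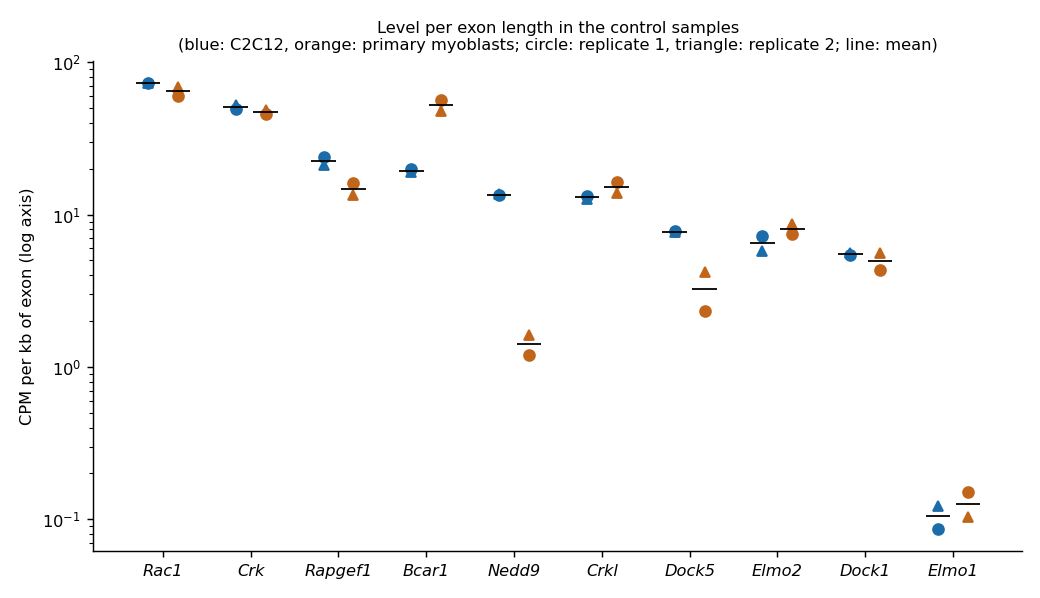
Level of the 10 genes in the control samples in CPM per kilobase of exon (y axis, log scale), ordered by the mean in C2C12 cells, for C2C12 cells (blue) and primary myoblasts (orange), with replicate 1 as a circle, replicate 2 as a triangle and the mean as a line. Nedd9 stands at 13.5 in C2C12 cells and at 1.41 in primary myoblasts, and Bcar1 at 19.3 and 52.3.

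Between the cell types both Cas scaffolds differed, Nedd9 higher and Bcar1 lower in C2C12 cells. Nedd9 was at 86.1 ± 0.899 CPM (SD, n = 2) in control C2C12 cells and at 8.97 ± 1.99 CPM (SD, n = 2) in control primary myoblasts, 9.53-fold higher in C2C12 cells on the fitted scale (log2 fold change 3.25, SE 0.21, adjusted p = 0.00307 by edgeR and Benjamini-Hochberg over 17103 genes). Bcar1 was at 87.9 ± 3.00 CPM (SD, n = 2) in C2C12 cells and at 238 ± 27.2 CPM (SD, n = 2) in primary myoblasts, which is -1.45 on the log2 scale (SE 0.15, adjusted p = 0.0066 from edgeR). Per kilobase, Nedd9 thus made up 38.9% to 41.9% of the summed Nedd9 and Bcar1 level in the 4 C2C12 samples and 2.05% to 4.18% in the 4 samples of primary myoblasts. Nedd9 passed the threshold under all 12 alternatives run for the control comparison and Bcar1 under 11, the exception being the fit without C2C12 control replicate 2 (adjusted p = 0.0649 from edgeR).

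Dock5 and Rapgef1 were the other genes that differed between the control cells. Dock5 was at 93.8 ± 1.04 CPM (SD, n = 2) in C2C12 cells and at 39.6 ± 16.2 CPM (SD, n = 2) in primary myoblasts, a difference of 1.23 on the log2 scale (SE 0.30, adjusted p = 0.0348 from edgeR). Dock5 no longer passed without C2C12 control replicate 1 (adjusted p = 0.133), without C2C12 control replicate 2 (adjusted p = 0.15) or with all 8 samples in one fit (adjusted p = 0.0537). Rapgef1 was 0.60 higher in C2C12 cells on the log2 scale (SE 0.16, adjusted p = 0.045 from edgeR), and it passed in 5 of 12 alternatives, with adjusted p-values from 0.0158 to 0.161. In all, 4 of the 10 genes passed, where 34.5% of all genes tested did. Crk differed by 0.11 (SE 0.14, adjusted p = 0.574) and Crkl by -0.23 (SE 0.15, adjusted p = 0.277), and Dock1, Elmo1, Elmo2 and Rac1 did not pass either, at log2 fold changes of -0.32 to 0.17, which with 2 samples per group does not show equal levels. Cell type, medium, time after transfection and state of differentiation cannot be told apart in this comparison. The 12 muscle differentiation genes summed to 42.7 and 176 CPM in the C2C12 controls and to 16925 and 4724 CPM in the primary myoblast controls.

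The 2 experiments differed in 3 of the 10 genes in primary myoblasts and in 2 in C2C12 cells. In primary myoblasts Dock5 was higher in experiment 2 by 1.08 on the log2 scale (SE 0.12, adjusted p = 2.96e-06 from edgeR), Dock1 by 0.63 (SE 0.13, adjusted p = 0.00105) and Nedd9 by 0.59 (SE 0.17, adjusted p = 0.0125), where 24.5% of all genes differed. Nedd9 did not pass with DESeq2 (adjusted p = 0.221). The fibroblast markers given above were also higher in experiment 2 of the primary myoblasts, and the muscle differentiation genes lower. In C2C12 cells the proliferation genes were lower in experiment 2, and the muscle differentiation genes higher. Their part in these differences was not tested. In C2C12 cells Elmo2 was lower in experiment 2, with a log2 difference of -0.38 (SE 0.07, adjusted p = 0.000329) as was Rapgef1, with -0.21 (SE 0.07, adjusted p = 0.0152), where 35.7% of all genes differed, and Rapgef1 did not pass with DESeq2 (adjusted p = 0.101). Crk and Crkl did not pass between the experiments in either cell type, at log2 differences of -0.22 to 0.12.

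The wider pathway was examined with 118 further genes in 8 lists by role, of which 106 were tested in C2C12 cells and 110 in primary myoblasts. In Septin9-deficient C2C12 cells 2 rose and 7 fell, where 2.64% of all genes rose and 4.12% fell. The largest decrease belonged to Arpc1a, a subunit of the Arp2/3 complex, which was at 72.2 and 75.1 CPM in the controls and at 48.1 and 50.6 CPM after depletion (log2 fold change -0.58, SE 0.07, adjusted p = 2.75e-05 from edgeR). Among the 27 tested effectors of Rac, 3 fell, which besides Arpc1a were Arpc5 (-0.35, SE 0.07, adjusted p = 0.00209) and Actr3 (-0.27, SE 0.07, adjusted p = 0.0176). Both encode subunits of the same complex, and its other genes on the list, Actr2, Arpc1b, Arpc2, Arpc3 and Arpc4, were tested and did not pass. Of the 12 kinases and phosphatases, Ptk2b, a focal adhesion kinase relative, fell by 0.31 (adjusted p = 0.0103) and the phosphatase Ptpn1 fell by 0.30 (adjusted p = 0.0124). Abr among 14 inhibitors of GTPases fell by 0.30 (adjusted p = 0.00785). Cdh15, the adhesion molecule M-cadherin, which is one of 10 fusion receptors tested and also one of the myoblast markers above, rose by 0.38 (SE 0.07, adjusted p = 0.00245), and Prex1 among 17 other exchange factors rose by 0.44 (SE 0.13, adjusted p = 0.0418). None of the 8 other adaptors and scaffolds or the 10 other small GTPases passed with edgeR. Among the former, Efs was at 0.774 and 1.36 CPM in the controls and at 1.54 and 2.71 CPM after depletion. Its log2 fold change was 0.99 (SE 0.30, adjusted p = 0.0509 from edgeR), on 17 to 65 raw counts per sample. The lists' median was -0.03, beside -0.0008 for all genes. Without replicate 1 or without replicate 2 no pathway gene passed with edgeR, when 3 and 8 had an unadjusted p under 0.05 and the spread came from the primary myoblasts.

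In Septin9-deficient primary myoblasts 1 of the 110 pathway genes rose and 1 fell, where 3.95% and 1.04% of all genes did. Arpc1a fell here as well, from 74.0 and 79.2 CPM to 62.6 and 52.6 CPM (log2 fold change -0.41, SE 0.11, adjusted p = 0.0391 from edgeR). Rhoq, a small GTPase related to Cdc42, rose from 320 and 166 CPM to 403 and 280 CPM (log2 fold change 0.55, SE 0.13, adjusted p = 0.0208). With RLE size factors or library size alone neither passed with edgeR, when 17 pathway genes had an unadjusted p under 0.05, whereas 15 pathway genes passed without replicate 1 and 8 without replicate 2, in fits where 1 sample per group remained and the spread came from the other cell type. Arpc1a was one of 5 pathway genes that hold the seed heptamer after the coding sequence. Of the others, Cyfip1, Rap1a and Wasf2 lay between -0.18 and 0.13 in both cell types and did not pass, and Rapgef5 was not tested. The siRNA effect was also compared between cell types, and this difference passed for none of the 110 pathway genes with edgeR or with DESeq2, when 6 and 5 had an unadjusted p under 0.05.

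**Figure D5:**
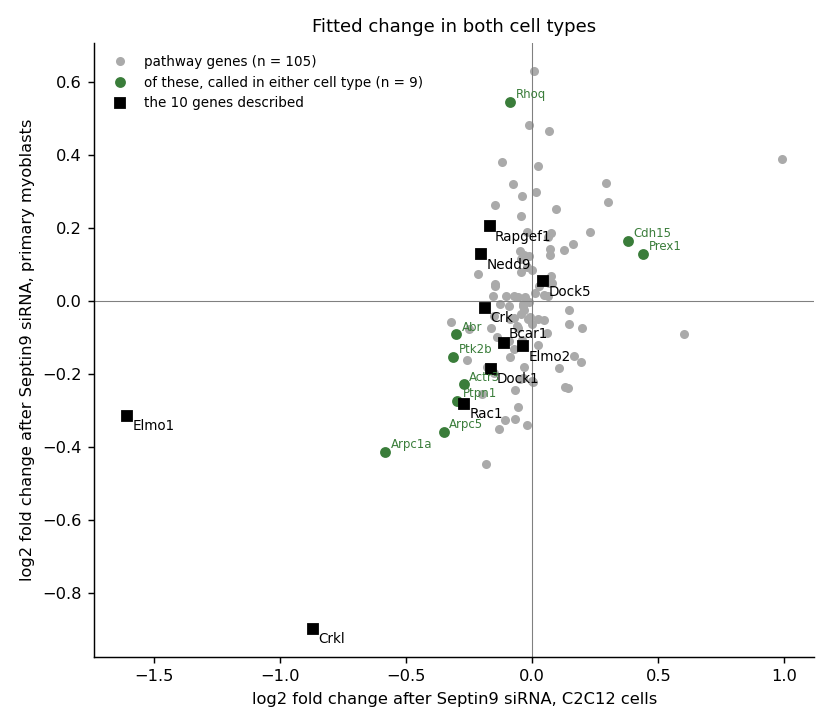
Fitted log2 fold change after Septin9 siRNA in C2C12 cells (x axis) and primary myoblasts (y axis) of the 10 genes described (black squares) and of 105 pathway genes tested in both (grey), with the 9 of these called in either cell type in green. Crkl lies at -0.87 and -0.90, Crk lies at -0.19 and -0.02, and Arpc1a lies at -0.58 and -0.41.

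Between the control cells 40 of the 110 pathway genes differed, 18 higher and 22 lower in C2C12 cells, a share close to the 34.5% of all genes. Wasf3, which encodes a WAVE protein, had no count in either C2C12 control and 256 and 181 counts in the primary myoblast controls, at least 69.5-fold lower with a floor of 3 counts per library (adjusted p = 0.00614 from edgeR). Cass4, a further Cas family member besides Bcar1 and Nedd9, also had no count in C2C12 controls and 29 and 19 in primary myoblasts, at least 7.65-fold lower with the same floor (adjusted p = 0.0171). Dock8 had a log2 difference of -3.41 in C2C12 cells with 265 and 106 counts against 2177 and 1984 (adjusted p = 0.0146), and Chn1, an inhibitor of Rac, had 286 and 390 counts against 2537 and 2136 (adjusted p = 0.0041). Chn2, a relative of Chn1, was higher in C2C12 cells, at 425 and 612 counts against 117 and 39 (adjusted p = 0.0283), as was Rapgef3, an exchange factor for Rap, at 164 and 390 counts against 14 and 63 (adjusted p = 0.0366).

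The genes whose level ran most like that of Crkl over the 8 samples, among 15073 genes, were Kdm4a (Pearson's r = 0.965 of log2 CPM), Sel1l (0.958), Cwf19l1 (0.950), Septin9 (0.946) and Arpc1a (0.943). These samples share cell type, experiment and siRNA, so the values are a description. In the replicate pairs Kdm4a, a histone demethylase, had log2 ratios of -0.63 and -0.56 in C2C12 cells and of -0.73 and -0.92 in primary myoblasts. Sel1l, part of the machinery that degrades proteins of the endoplasmic reticulum, had -0.82 and -0.77, and -0.81 and -0.68. The genes most like Crk were Pdcd10 (0.928), Gm9958 (0.908), Myl9 (0.892), Msmp (0.892) and Srf (0.891). Kdm4a, Sel1l and Arpc1a, 3 of the 5 genes most like Crkl, hold the seed heptamer after the coding sequence. Of the 5 genes most like Crk, 0 hold it, beside 3.30% of tested genes with a sequence in C2C12 cells and 3.34% in primary myoblasts. Whether the heptamer has a part in the likeness was not tested. Between Crk and Crkl the same correlation was 0.578.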

How the data were processed

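The authors aligned the reads to GRCm38.p6 by STAR (2.7.2, per the submitters' processing notes), counted reads per gene with featureCounts (2.0.1) and deposited raw counts for all 8 samples. They also deposited, per cell type, a normalized signal: counts adjusted for batch with ComBat-Seq and divided by the size factors of DESeq2 (1.40.1). In 100% of its values above 0 this signal was a whole multiple of 1 read (within 0.01 reads), so the adjusted counts were recovered for an alternative. Whether counting used the strand is not given in the sources used here. The 16 broken lines of the raw matrix were left out.

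The 10 genes, the pathway and marker lists and the tests were chosen with earlier results of these data known. Raw counts were analysed in R 4.3.3 with edgeR 4.0.16 (filterByExpr, TMM, quasi-likelihood test, Benjamini-Hochberg adjustment). Septin9-deficient and control samples were compared within each cell type (15814 and 17117 genes) with the replicate number as blocking factor, and its coefficient gave experiment 2 against 1. The 4 control samples (17103 genes) were compared without a block, and the difference between cell types was an interaction term over 17918 genes. Called means an adjusted p under 0.05. Samples of the same number deviated together within a cell type (correlation across genes 0.678 in C2C12 cells, 0.820 in primary myoblasts), and the pairing comes from the 2 independent experiments of the study's methods and the replicate numbers. Standard errors are the fold change divided by the square root of F. Pair ratios use log2 CPM with a prior count of 2. Nothing in the labels says that replicates are separate cultures, so p-values may measure technical spread in part. Each group has 2 samples, which limits the precision.

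Named are the 10 genes, Septin9, pathway genes called in a comparison (at most the 12 with the largest change, of which those described were picked after their values were seen) and the 5 genes most correlated with Crkl or Crk. The values of 1 pathway gene are not reported here. Exon lengths, positions and sequences came from GENCODE release 21 on GRCm38, and the guide strand was assumed to be the complement of the siRNA sequence in the study's methods. Alternatives were scaling by RLE or by library size, a filter that keeps every gene with a count or one that asks for 10 in each sample, leaving out the replicate block (for the control samples, adding it), DESeq2 1.42.0 on raw or on the deposited adjusted counts, a joint fit of all 8 samples, no fold threshold, and each replicate left out (where 1 sample per group remains, the samples of the other cell type supply the spread, so the lone samples are assumed to vary like them). A crossed block for the control samples and transcript in place of exon length were alternatives chosen after seeing the data. The fits were tested on simulated data.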

Additional observations from a re-analysis of the deposited data

Results flagged for a closer look

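In both replicate pairs Nedd9 and Rapgef1 were lower after Septin9 siRNA in C2C12 cells and not lower in primary myoblasts. For Nedd9 the pair ratios on the log2 scale were -0.19 and -0.20 in the C2C12 pairs, against 0.00 and 0.23 in primary myoblasts, where the groups overlapped, and the fitted difference, primary myoblasts minus C2C12 cells, was 0.32 (standard error 0.14). For Rapgef1 the ratios were -0.17 and -0.16, and 0.10 and 0.30, with a fitted difference of 0.36 (standard error 0.12). These differences were not tested one by one, since the genes were chosen on these contrasts, and in the fit over 17918 genes edgeR called 0 genes for such a difference (1469 at an unadjusted p under 0.05) and DESeq2 called 21, none of them among the 10 genes. No group holds enough samples for an outlier to be sought.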

How the results depend on the processing

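The call of Crkl was lost without the replicate block in both, where none of the members and no gene was called, and without replicate 1 in C2C12 cells. Leaving out each replicate in turn gave fold changes of -1.10 to -0.64 in C2C12 cells and -0.90 to -0.89 in primary myoblasts, where the other values that moved beyond the spread of the pairs were -0.89 (RLE, DESeq2), -0.93 (library size) and -0.91 (deposited adjusted counts). For Crk in C2C12 cells they were -0.17 (library size), -0.21 (no filter) and -0.18 (all 8 samples in one fit), with -0.19 to -0.18 as replicates were left out. As the genes were chosen on these contrasts, nothing is read from calls of members here or below.

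The 248 DEGs in C2C12 cells became 0 without the replicate block, 99 with DESeq2, 123 on the deposited adjusted counts, 83 with all 8 samples, 16 to 60 as replicates were left out and 1068 with no fold threshold. The 542 in primary myoblasts became 260 with RLE, 206 with library size, 0 without the replicate block, 230 with DESeq2, 331 on the adjusted counts, 854 with no fold threshold and 375 to 957 as replicates were left out. On the deposited adjusted counts Crk was called in C2C12 cells in place of Elmo1. The members called in C2C12 cells were 3 in the main fit, 0 without the block, 1 with DESeq2 and 1 with all 8 samples. Of all genes, 1068, 0, 276 and 111 were called in these fits. In primary myoblasts the members called were 1 in the main fit, 0 without the block and 2 on the adjusted counts, where 854, 0 and 744 of all genes were called. The pathway genes called in C2C12 cells went from 9 to 0 without the block, 4 with DESeq2, 1 with all 8 samples and 0 as replicates were left out. Those in primary myoblasts went from 2 to 0 (RLE, library size, no replicate block), 6 (no filter), 1 (DESeq2), 7 (adjusted counts) and 8 to 15 as replicates were left out. With edgeR and no block 3 and 1 pathway genes had an unadjusted p under 0.05.

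With DESeq2 the experiments differed in 2570 genes in place of 5638 in C2C12 cells, with 11 pathway genes for 40 and 1 member for 2, and in 2005 in place of 4187 in primary myoblasts, with 22 pathway genes for 38. DESeq2 found 21 genes that differed between cell types in the effect of the siRNA, where edgeR found 0 and 1469 at an unadjusted p under 0.05. The 5699 DEGs between control cells became 512 to 4760 as replicates were left out, the 40 pathway genes 3 to 41 and the 4 members 1 to 3, the lowest without C2C12 control replicate 2. Without primary myoblast control replicate 1 Dock1 turned to -0.01 and Elmo1 to 0.04, and the fits that left out a control sample ranged from -0.01 to 0.36 for Dock1 and from -0.54 to 0.04 for Elmo1. Control samples of the same number did not deviate together across cell types (correlation -0.144). With the replicate block 4326 genes were called for 5901, and Rapgef1 lost its call (adjusted p = 0.0755 from edgeR), and with the crossed pairing 6645 were called. The causes of these moves were not tested. The 2 samples per group limit the precision, and at 5 to 44 counts per sample the depth limits Elmo1.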
